A study of Mus musculus with 12 samples.

Results

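Fam219b, Arid3b, Parp6, Coro2b and Dapk2 are 5 genes of mouse chromosome 9, between 57 and 67 Mb (GRCm38), whose RNA differed with the genotype label of group 2 innate lymphoid cells (ILC2s). They were chosen because they differed with that label in these same 12 libraries, so every KO-labelled to WT-labelled value given for them is a description, with no test. They are 5 of the 14431 genes tested and 5 of the 105 tested genes of the interval, and all 5 passed the filter on low counts. ILC2s are tissue lymphocytes that make type 2 cytokines without a rearranged antigen receptor. The cells were sorted from skin-draining lymph nodes of mixed chimeras: CD45.1 congenic hosts were irradiated with 950 cGy and given WT marrow (CD90.1) and Rag1-/- marrow (CD45.2) in equal parts, all with the strain label C57BL6. Every host received IL-33, at 30 ng in each cheek and 240 ng in the peritoneum, daily for 7 days. The 4 groups of 3 libraries were KO-labelled cells (Rag1-/-, CD90.2) at 20 weeks after transplant, WT-labelled cells (CD90.1) at 20 weeks, KO-labelled cells at 8 weeks and WT-labelled cells at 8 weeks. Genotype label and CD90 allele went together in all 12 libraries, so a difference between them cannot be told apart from one that goes with the allele or the marrow donor. The labels do not say that replicates came from separate hosts, so the p-values cover the spread between libraries, which may be technical. The later time is 20 weeks by the sample labels, used throughout, while the text describing the series as a whole states a different length. No harvest date is given, so a batch tied to the time after transplant cannot be told apart from time.

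Rag1 reads were estimated only in KO-labelled libraries. The estimate was 0 in all 6 WT-labelled libraries, while 5 of 6 KO-labelled libraries held 10.8 to 18.4 estimated reads. These estimates give no position along the gene, so they do not show whether the labels hold. Thy1, the gene of CD90, had 16.8 to 37.8 CPM (counts scaled to library size, with TMM factors) in KO-labelled libraries and 2.96 to 5.7 CPM in WT-labelled ones. All 10 of 10 listed ILC2 markers were above 0 in every library, and their summed TPM (abundance per transcript length, scaled to a fixed library sum) was 5260 to 5970 in KO-labelled cells at 20 weeks, 5960 to 6550 in WT-labelled cells at 20 weeks, 4020 to 5100 in KO-labelled cells at 8 weeks and 3310 to 5040 in WT-labelled cells at 8 weeks. Summed T cell markers were lower in KO-labelled cells, with a small overlap at 8 weeks, at 52.8 to 62.8 and 41.3 to 70 TPM in KO-labelled cells at 20 and 8 weeks, against 67.7 to 82.9 and 65.3 to 104 TPM in WT-labelled cells at 20 and 8 weeks. Of the 6 listed, 4 were above 0 in all libraries. Cd3g, Cd3d and Cd3e of this list start 0.926, 0.938 and 0.955 Mb from Thy1. Their label values, averaged over both times, were -0.499, -0.375 and -3.143 on the log2 scale, and none was called. The sum thus cannot tell T cell content apart from a difference that goes with this stretch of chromosome 9. Summed B cell markers (3 of 4 above 0 in all libraries) were higher in KO-labelled cells at 20 weeks, at 108 to 123 TPM against 74.8 to 98.1 TPM in WT-labelled cells, and overlapped at 8 weeks, at 116 to 205 against 113 to 175 TPM. Summed myeloid markers (3 of 5 above 0 in all) were at 5.35 to 9.75 TPM in KO-labelled and 2.3 to 7.15 TPM in WT-labelled cells at 20 weeks, and at 5.9 to 12.3 and 2.52 to 6.5 TPM at 8 weeks. Summed mast cell markers (1 of 3 above 0 in all) moved with time. They were at 14.6 to 21.1 and 12 to 16.5 TPM in KO-labelled and WT-labelled cells at 20 weeks, against 7.24 to 8.28 and 7.12 to 12.7 TPM at 8 weeks. Summed stromal and endothelial markers had 2 of 4 above 0 in all libraries. They were at 68.2 to 94.2 TPM in KO-labelled and 59.4 to 73.1 TPM in WT-labelled cells at 20 weeks. At 8 weeks they were at 51.2 to 74.4 and 57.6 to 66.2 TPM. Summed erythroid markers (1 of 2 above 0 in all) were at 13.4 to 16 and 8.43 to 16.4 TPM at 20 weeks. At 8 weeks they were at 5.02 to 42.1 and 17.5 to 48.2 TPM, again KO-labelled first. Summed NK cell markers stayed at or below 1.75 TPM. No list had a marker at 0 in every library. The part of any of these in the values below was not tested. Libraries held 11433625 to 32529806 estimated reads. In an alternative, the WT-labelled library 2 and the KO-labelled library 3 of 8 weeks were left out together, and some results are also given without them. They are called the libraries that stood apart below, though no measure of how they differ from the rest is given here. In bulk RNA, fewer cells of a kind and less RNA per cell cannot be told apart.

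The 5 genes belong to different families. Arid3b encodes a DNA-binding protein with an AT-rich interaction domain, a fold that contacts A- and T-rich DNA and that several chromatin regulators share. Parp6 encodes a member of the PARP family, enzymes that move ADP-ribose from NAD onto proteins. Coro2b encodes a coronin, an actin-binding protein with a beta-propeller that acts where the actin network is rebuilt. Dapk2 encodes a death-associated protein kinase, a serine/threonine kinase switched on by calcium and calmodulin and known for roles in cell death and autophagy. Fam219b encodes a protein whose function is little described. What they share is their place: the starts of the 5 genes lay 13.494 Mb (Fam219b), 13.747 Mb (Arid3b), 15.574 Mb (Parp6), 18.376 Mb (Coro2b) and 22.115 Mb (Dapk2) from the start of Thy1, toward higher coordinates. In all distances between genes, the start is the lowest coordinate of a gene. For genes on the minus strand, Arid3b and Coro2b among them, that is where transcription ends.

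All 5 genes were matched in RefSeq (GRCm38.p6), with 1 promoter entry each and 2 for Arid3b, covering 250 bases before to 50 after the start of transcription. The promoters of Fam219b (chr9:57537278-57537577, plus strand) and Dapk2 (chr9:66157976-66158275, plus strand) are shown because these 2 genes were the ones lower in KO-labelled cells, and that of Coro2b (chr9:62536995-62537294, minus strand) because its difference was the largest of the 3 in the other direction. Capitals mark matches, on either strand, to a core of ETS factor sites (CCGGAA) or to a site of GATA factors, AGATAA; neither motif contains the other.
Fam219b promoter: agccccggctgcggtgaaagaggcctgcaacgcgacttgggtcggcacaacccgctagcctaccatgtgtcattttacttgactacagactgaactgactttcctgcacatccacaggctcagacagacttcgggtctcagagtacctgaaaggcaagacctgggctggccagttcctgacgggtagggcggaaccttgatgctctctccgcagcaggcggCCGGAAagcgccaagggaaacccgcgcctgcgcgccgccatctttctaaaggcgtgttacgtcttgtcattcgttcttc
Dapk2 promoter: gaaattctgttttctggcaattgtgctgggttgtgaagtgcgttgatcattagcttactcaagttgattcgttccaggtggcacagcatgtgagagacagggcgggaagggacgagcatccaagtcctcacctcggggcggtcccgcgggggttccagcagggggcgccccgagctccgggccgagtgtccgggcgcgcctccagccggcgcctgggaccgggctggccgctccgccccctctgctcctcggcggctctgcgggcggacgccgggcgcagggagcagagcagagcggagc
Coro2b promoter: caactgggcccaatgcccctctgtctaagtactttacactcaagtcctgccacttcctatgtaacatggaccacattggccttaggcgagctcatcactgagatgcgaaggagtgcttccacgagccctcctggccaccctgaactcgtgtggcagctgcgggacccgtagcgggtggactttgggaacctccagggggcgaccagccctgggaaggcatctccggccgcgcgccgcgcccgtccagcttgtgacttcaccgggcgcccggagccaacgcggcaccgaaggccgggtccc
The Fam219b promoter held 1 CCGGAA and no AGATAA, and the Dapk2, Coro2b and Parp6 promoters held neither. The first Arid3b promoter (chr9:57836730-57837029, minus strand) held 2 CCGGAA, both as the reverse complement, and the second held 1 CCGGAA and 1 AGATAA. Among 32851 RefSeq promoters of this length, 14.9% held CCGGAA and 11.2% held AGATAA. No motif searched was therefore common to the 2 genes that were lower or to the 3 that were higher.

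Fam219b (ENSMUSG00000032305; chromosome 9, 57537528 to 57543184, plus strand) was lower in KO-labelled cells at both times. It had 39.6, 44.8 and 40.8 CPM in KO-labelled cells at 20 weeks, against 102, 136 and 98.3 CPM in WT-labelled cells at 20 weeks. At 8 weeks it had 41.6, 52.3 and 91.7 CPM in KO-labelled cells, against 287, 532 and 179 CPM in WT-labelled cells. All 6 KO-labelled libraries were below all 6 WT-labelled ones, with KO-labelled library 3 of 8 weeks nearest to them. By level the groups ran KO-labelled at 20 weeks, KO-labelled at 8 weeks, WT-labelled at 20 weeks and WT-labelled at 8 weeks, from lowest to highest, and only the 2 KO-labelled groups overlapped in that order. The log2 fold change, KO-labelled over WT-labelled, was -1.42 (SE 0.37) at 20 weeks and -2.43 (SE 0.38) at 8 weeks.

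Dapk2 (ENSMUSG00000032380; chromosome 9, 66158223 to 66272242, plus strand) was also lower in KO-labelled cells at both times, and it rested on few reads, an estimated 5.81 to 210 a library. It had 0.605, 0.645 and 0.255 CPM in KO-labelled cells at 20 weeks, against 3.52, 2.94 and 2.38 CPM in WT-labelled cells at 20 weeks. At 8 weeks it had 0.717, 1.4 and 2.04 CPM in KO-labelled cells, against 9.22, 6.42 and 8.21 CPM in WT-labelled cells. The 4 groups kept apart library by library, in the same order as for Fam219b. The log2 fold change was nearly the same at both times, at -2.53 (SE 0.46) at 20 weeks and -2.55 (SE 0.46) at 8 weeks. Without both libraries that stood apart, the value at 8 weeks was -3.04.

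Coro2b (ENSMUSG00000041729; chromosome 9, 62419492 to 62537044, minus strand) differed in the other direction, and mainly at 8 weeks. It had 15.7, 9.88 and 6.51 CPM in KO-labelled cells at 20 weeks, against 3.97, 7.35 and 5.84 CPM in WT-labelled cells at 20 weeks, and the 2 groups overlapped. At 8 weeks it had 14, 13 and 12.3 CPM in KO-labelled cells, against 1.44, 0.494 and 0.919 CPM in WT-labelled cells. The 3 WT-labelled libraries of 8 weeks were below the other 9, of which the lowest had 3.97 CPM. The log2 fold change was 0.91 (SE 0.38) at 20 weeks and 3.72 (SE 0.44) at 8 weeks, a difference, 20 weeks minus 8 weeks, of -2.81 (SE 0.57). Its estimated reads ran from 4.85 to 545 a library.

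Arid3b (ENSMUSG00000004661; chromosome 9, 57790353 to 57836793, minus strand) was higher in KO-labelled cells at both times by a smaller amount. It had 37.4, 38.8 and 32.6 CPM in KO-labelled cells at 20 weeks, against 20.9, 27.4 and 22.4 CPM in WT-labelled cells at 20 weeks. At 8 weeks it had 25.1, 50.6 and 51.6 CPM in KO-labelled cells, against 18.6, 15.6 and 17.6 CPM in WT-labelled cells. Within each time the groups kept apart, and across times KO-labelled library 1 of 8 weeks fell below the highest WT-labelled library of 20 weeks. The log2 fold change was 0.62 (SE 0.25) at 20 weeks and 1.29 (SE 0.26) at 8 weeks.

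Parp6 (ENSMUSG00000025237; chromosome 9, 59617284 to 59650285, plus strand) had the smallest difference of the 5 at 8 weeks and averaged over times, while at 20 weeks its value and that of Arid3b were equal to the rounding. It had 12, 13.9 and 17.2 CPM in KO-labelled cells at 20 weeks, against 9.88, 9.4 and 8.72 CPM in WT-labelled cells at 20 weeks. At 8 weeks it had 11.7, 15.3 and 11.8 CPM in KO-labelled cells, against 5.33, 10.2 and 6.86 CPM in WT-labelled cells. All 6 KO-labelled libraries were above all 6 WT-labelled ones, while within each label the 2 times overlapped. The log2 fold change was 0.62 (SE 0.26) at 20 weeks and 0.81 (SE 0.27) at 8 weeks, and the value at 8 weeks was 1.09 without WT-labelled library 2 and 1.16 without both libraries that stood apart.

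**Figure D1:**
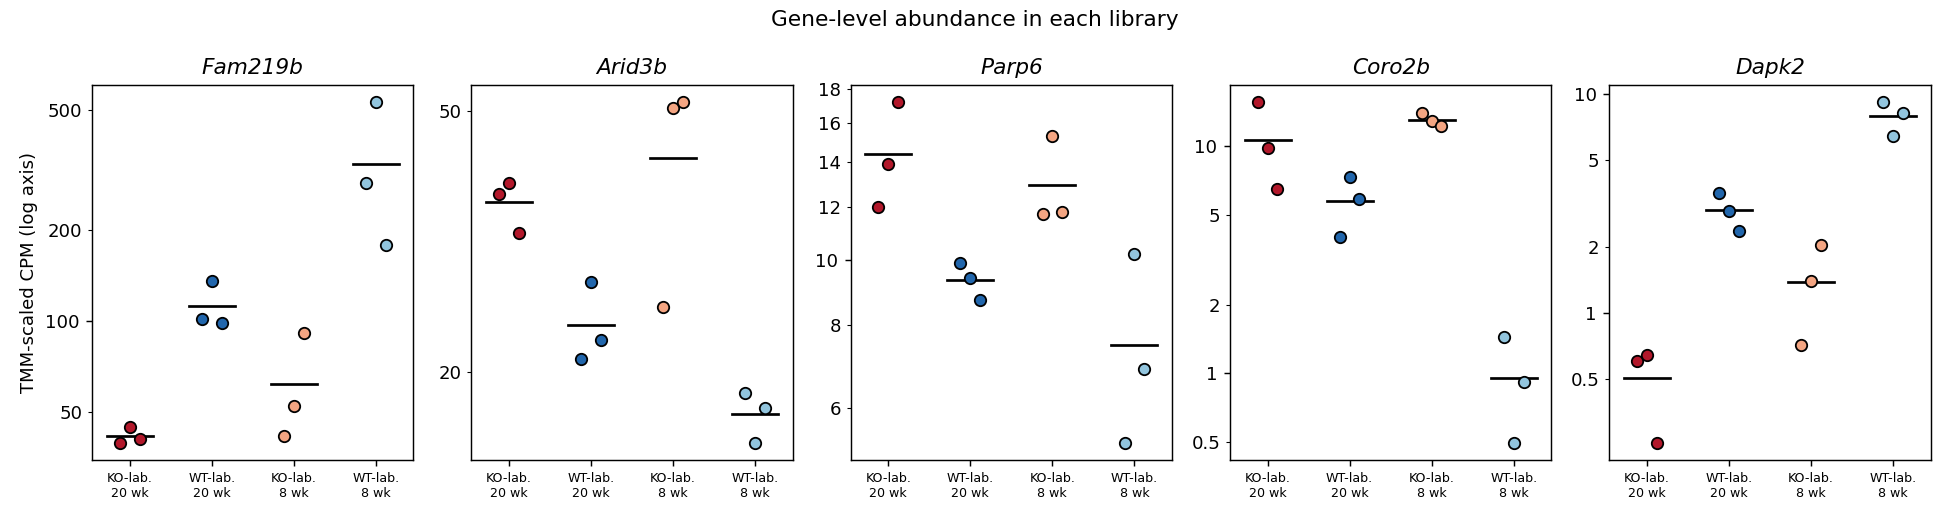
CPM (TMM-scaled, log axis) of each gene in each library, by group: KO-labelled at 20 weeks, WT-labelled at 20 weeks, KO-labelled at 8 weeks and WT-labelled at 8 weeks. Points are libraries, 3 a group, and lines are group means; in Fam219b, Parp6 and Dapk2 the KO-labelled and WT-labelled points do not overlap, and in Coro2b the 3 WT-labelled libraries of 8 weeks lie at 0.494 to 1.44 CPM.

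Averaged over both times, the log2 fold changes were -2.54 (SE 0.33) for Dapk2, -1.93 (SE 0.27) for Fam219b, 2.31 (SE 0.29) for Coro2b, 0.96 (SE 0.18) for Arid3b and 0.71 (SE 0.19) for Parp6. By the smallest p among the 14431 genes, Coro2b ranked 13, Dapk2 15, Fam219b 19, Arid3b 38 and Parp6 78. At an adjusted p under 0.05, Coro2b, Dapk2 and Fam219b passed in the average, 3 of the 5, where 0.222% of all genes did. At 8 weeks Coro2b and Fam219b passed, 2 of the 5, beside 0.201% of all genes, and at 20 weeks 0 of the 5 passed, beside 0.0554%. The libraries of the 2 labels did not overlap in 3 of the 5 genes, beside 0.36% of all genes. DESeq2 called 4 of the 5 in the average and at 8 weeks (all but Parp6), beside 0.527% and 0.52% of all genes, and 1 at 20 weeks (Dapk2), beside 0.222%. The choice of the genes used these contrasts, so nothing is read from these shares. In a comparison added after the data were seen, among the libraries of 8 weeks that were processed with 8 threads, 2 of each label, the log2 fold changes were -2.62 for Fam219b, -2.54 for Dapk2, 3.69 for Coro2b, 1.16 for Arid3b and 0.61 for Parp6. Ubl7 and Thsd4, genes of the interval that were not among the 5, came ahead of Parp6 in this ranking, Ubl7 at 60.

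Per length, on the TPM scale, Fam219b had the highest level of the 5 in 3 of the 4 groups. Mean TPM (SD, n = 3 each) was 19.5 ± 1.35 in KO-labelled cells at 20 weeks, 50.7 ± 12.3 in WT-labelled cells at 20 weeks, 24.1 ± 10.3 in KO-labelled cells at 8 weeks and 128 ± 63.7 in WT-labelled cells at 8 weeks. Arid3b was above it in KO-labelled cells at 20 weeks, with a mean of 24.7 ± 2.22 TPM, and averaged 13 ± 3.78 TPM in WT-labelled cells at 20 weeks, 21.3 ± 8.01 in KO-labelled cells at 8 weeks and 9.66 ± 1.42 in WT-labelled cells at 8 weeks. Parp6 averaged 8.42 ± 0.943 TPM in KO-labelled and 5.33 ± 0.616 TPM in WT-labelled cells at 20 weeks, and 6.42 ± 1.01 TPM in KO-labelled and 3.63 ± 1.03 TPM in WT-labelled cells at 8 weeks. Coro2b averaged 7.29 ± 1.86 TPM in KO-labelled and 3.96 ± 0.145 TPM in WT-labelled cells at 20 weeks, and 6.84 ± 0.311 TPM in KO-labelled and 0.69 ± 0.292 TPM in WT-labelled cells at 8 weeks. Dapk2 averaged 0.65 ± 0.411 TPM in KO-labelled and 3.02 ± 0.528 TPM in WT-labelled cells at 20 weeks, and 1.24 ± 0.767 TPM in KO-labelled and 6.27 ± 0.339 TPM in WT-labelled cells at 8 weeks. In WT-labelled cells at 8 weeks Dapk2 thus stood above Parp6 and Coro2b, and in KO-labelled cells at either time it stood below both.

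The time after transplant, averaged over both labels, was the contrast that the choice of genes did not use, and Fam219b and Dapk2 fell at 20 weeks relative to 8 weeks. For Fam219b the log2 fold change was -1.07 (SE 0.26, adjusted p = 0.0497) and for Dapk2 -1.42 (SE 0.32, adjusted p = 0.038), by edgeR's quasi-likelihood test with Benjamini-Hochberg adjustment over 14431 genes. That is 2 of the 5, where 2.9% of all genes passed and 1.93% passed in that direction. Coro2b had a log2 fold change of 1.11 (SE 0.28) that did not pass (adjusted p = 0.057, edgeR), and neither did Parp6 at 0.24 (SE 0.19, adjusted p = 0.534) or Arid3b at 0.11 (SE 0.18, adjusted p = 0.79). Both calls were close to the threshold: Fam219b passed in 2 and Dapk2 in 4 of 12 fits that left out 1 library each, with adjusted p-values (edgeR) of 0.015 to 0.123 and 0.0277 to 0.0956. Fam219b passed only without KO-labelled library 1 or WT-labelled library 3 of 8 weeks, and Dapk2 only without KO-labelled library 1 or 3 or WT-labelled library 2 or 3 of 8 weeks; with the number of processor threads that the file headers record, 8 or 24, as a covariate, neither passed (adjusted p = 0.16 for Fam219b and 0.0968 for Dapk2, edgeR).

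Within the labels, the time values are a description, since they share their libraries with the label contrasts. For Dapk2 the log2 fold change, 20 weeks over 8 weeks, was -1.41 (SE 0.46) in KO-labelled and -1.43 (SE 0.43) in WT-labelled cells. For Fam219b it was -0.56 (SE 0.37) in KO-labelled and -1.57 (SE 0.37) in WT-labelled cells. For Coro2b it was -0.29 (SE 0.38) in KO-labelled and 2.52 (SE 0.43) in WT-labelled cells, so the time-averaged value of this gene came from the WT-labelled libraries. Arid3b and Parp6 had values of -0.23 (SE 0.25) and 0.15 (SE 0.26) in KO-labelled cells, and of 0.45 (SE 0.26) and 0.34 (SE 0.27) in WT-labelled cells.

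At the level of transcripts, the files listed 26 for the 5 genes: 2 of Fam219b, 10 of Arid3b, 3 of Parp6, 7 of Coro2b and 4 of Dapk2. Of these, 13 had at least 10 estimated reads in at least 3 libraries, and in 3 of the 13 the TPM of the labels did not overlap, beside 0.192% of 35347 transcripts with that depth. The 3 were Fam219b-201, Dapk2-201 and Arid3b-210. Transcripts belong to genes chosen by the label, so they carry no test.

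Fam219b-201, a coding transcript, held a mean of 98.6% of the reads of its gene, and its TPM was 15.9 to 35.7 (median 18.9) in KO-labelled libraries against 41.2 to 197 (median 67.7) in WT-labelled ones. Dapk2-201, also coding, held 71.2% of the reads of its gene on average. It had 0 to 25.1 estimated reads in KO-labelled libraries against 25.8 to 208 in WT-labelled ones, and 0 to 1.04 TPM against 1.33 to 6.25 TPM. The Dapk2-201 reads of the KO-labelled library with most and the WT-labelled library with fewest were nearly equal, in libraries of unequal depth. Coro2b-201 held 80.5% of the reads of its gene and had 1.44 to 5.67 TPM in KO-labelled libraries against 0.104 to 2.68 TPM in WT-labelled ones. The 2 labels overlapped in this transcript through the WT-labelled libraries of 20 weeks. Of the minor Coro2b transcripts, Coro2b-203 was above 0 in 6 KO-labelled and 2 WT-labelled libraries, and Coro2b-204, a retained intron, in 6 KO-labelled and 1 WT-labelled library.

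Parp6 was divided between a transcript annotated for nonsense-mediated decay and a coding one. Parp6-203, annotated for decay, held 55.8% of the reads of the gene, with 3.69 to 5.1 TPM in KO-labelled libraries against 1.52 to 4.03 TPM in WT-labelled ones. Parp6-202, coding, had 1.12 to 4.64 TPM in KO-labelled libraries against 0.43 to 2.23 TPM in WT-labelled ones. In GENCODE M21 sequences, Parp6-203 differs from the other 2 by 19 of its 2213 20-base words. Its division from them thus rests on few words. The deposited length of each Parp6 transcript differs from that in GENCODE M21, so the count in the sequences quantified may not be 19.

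Arid3b-201 carried 78.7% of the Arid3b reads and had 6.2 to 14.1 TPM (median 11.9) in KO-labelled libraries against 3.3 to 8.7 TPM (median 4.32) in WT-labelled ones. A short coding transcript, Arid3b-210, separated the labels more sharply. It had 5.58, 4.75 and 2.71 TPM in KO-labelled cells at 20 weeks, against 0, 0 and 1.18 TPM in WT-labelled cells at 20 weeks. At 8 weeks it had 3.7, 5.1 and 5.52 TPM in KO-labelled cells, against 0, 0 and 0 TPM in WT-labelled cells. In estimated reads this was 29.5 to 82.2 (median 55.9) in KO-labelled libraries, against 8.1 in 1 WT-labelled library and 0 in the other 5. It made up 3.86% to 8.01% of the Arid3b reads in KO-labelled libraries and 0% to 2.61% in WT-labelled ones. Arid3b-202 showed the reverse, at 0 in all 6 KO-labelled libraries and above 0 in 4 WT-labelled ones, with up to 81.1 estimated reads. An estimate of 0 here is a result of the model that divides reads among transcripts and does not show that none was present.

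Arid3b-210 is annotated with 2 exons and 640 bases (chromosome 9, 57792161 to 57796221). Its junction joins exon 6 of Arid3b-201 to exon 8, so it leaves out exon 7 (57794936 to 57795034), which is 99 bases or 33 whole codons. The junction sequences, from GENCODE M21 on the minus strand, are shown because they are what tells the transcripts apart; capitals mark the first bases of the second exon.
Arid3b-210, exon 6 to exon 8: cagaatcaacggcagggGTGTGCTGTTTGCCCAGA
Arid3b-201, exon 6 to exon 7: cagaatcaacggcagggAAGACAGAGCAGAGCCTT
Arid3b-201, exon 7 to exon 8: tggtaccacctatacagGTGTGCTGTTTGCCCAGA
Of the 621 20-base words of Arid3b-210, 16 were in no other listed Arid3b transcript, and they span its bases 99 to 133, across this junction. Arid3b-201, Arid3b-203 and Arid3b-209 had 0 such words, so their division rests on the model alone. Whether those 16 words occur in other genes was not checked.

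**Figure D2:**
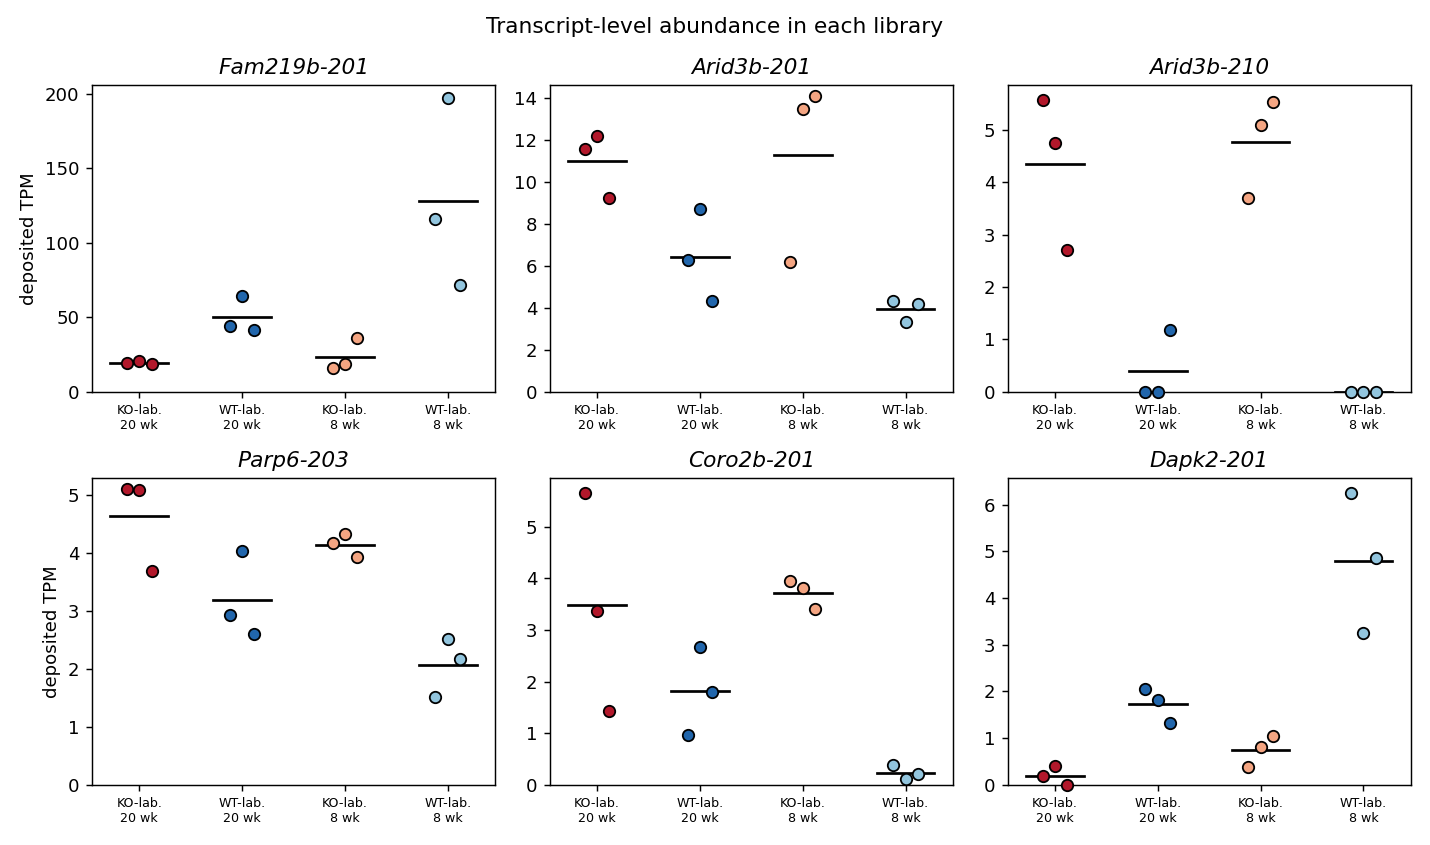
Deposited TPM of 6 transcripts in each library (linear axis from 0), by group: KO-labelled at 20 weeks, WT-labelled at 20 weeks, KO-labelled at 8 weeks and WT-labelled at 8 weeks. Points are libraries, 3 a group, and lines are group means; Arid3b-210 was at 2.71 to 5.58 TPM in the KO-labelled libraries and at 0 in 5 of the 6 WT-labelled ones.

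Averaged over both times, the tested neighbours on either side of Fam219b, Dapk2, Coro2b and Parp6 had smaller label differences than these genes, by their estimates. Around Fam219b, Cox5a, a subunit of cytochrome c oxidase whose start lies 16.3 kb away toward lower coordinates, had a log2 fold change, averaged over both times, of 0.57 (SE 0.30), and Mpi, a mannose phosphate isomerase 6.7 kb away on the other side, one of 0.02 (SE 0.20). Around Dapk2, Ciao2a, which helps load iron-sulfur clusters, had -0.03 (SE 0.13) at 31.6 kb, and Herc1, a large ubiquitin ligase, had 0.06 (SE 0.24) at 192.2 kb. Around Coro2b, Anp32a had 0.34 (SE 0.27) at 78.2 kb and Fem1b, an adaptor of a ubiquitin ligase, 0.35 (SE 0.21) at 372.3 kb. Around Parp6, Hexa, a lysosomal hexosaminidase chain, had -0.12 (SE 0.16) at 77.7 kb, and Pkm, a pyruvate kinase, 0.15 (SE 0.14) at 39.1 kb. All 8 had an adjusted p of 1 by edgeR.

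Of all these neighbours, Gm17231, a neighbour of Arid3b, had the largest label difference in size averaged over both times. The other neighbour of Arid3b, Ubl7, had a smaller estimate than Cox5a, a neighbour of Fam219b, at 0.57 (SE 0.30). Ubl7, a ubiquitin-like protein gene whose start lies 120.6 kb away, had 122, 112 and 115 CPM in KO-labelled cells at 20 weeks, against 115, 96.9 and 88 CPM in WT-labelled cells at 20 weeks, and 154, 140 and 123 CPM in KO-labelled cells at 8 weeks, against 89.9, 69.4 and 82.1 CPM in WT-labelled cells at 8 weeks. Its log2 fold change was 0.50 (SE 0.12) and did not pass (adjusted p = 0.275, edgeR). Gm17231, on the plus strand, overlaps Arid3b and went the other way, with 0.43 to 1.15 CPM in KO-labelled and 0.969 to 2.4 CPM in WT-labelled libraries and a value of -0.92 on the log2 scale (SE 0.35, adjusted p = 1, edgeR), about as large as that of Arid3b; at 8 weeks its value was -1.61 (SE 0.51, adjusted p = 0.882, edgeR). The strand of the libraries is not stated, so reads of this gene and of Arid3b cannot be told apart where they overlap.

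**Figure D3:**
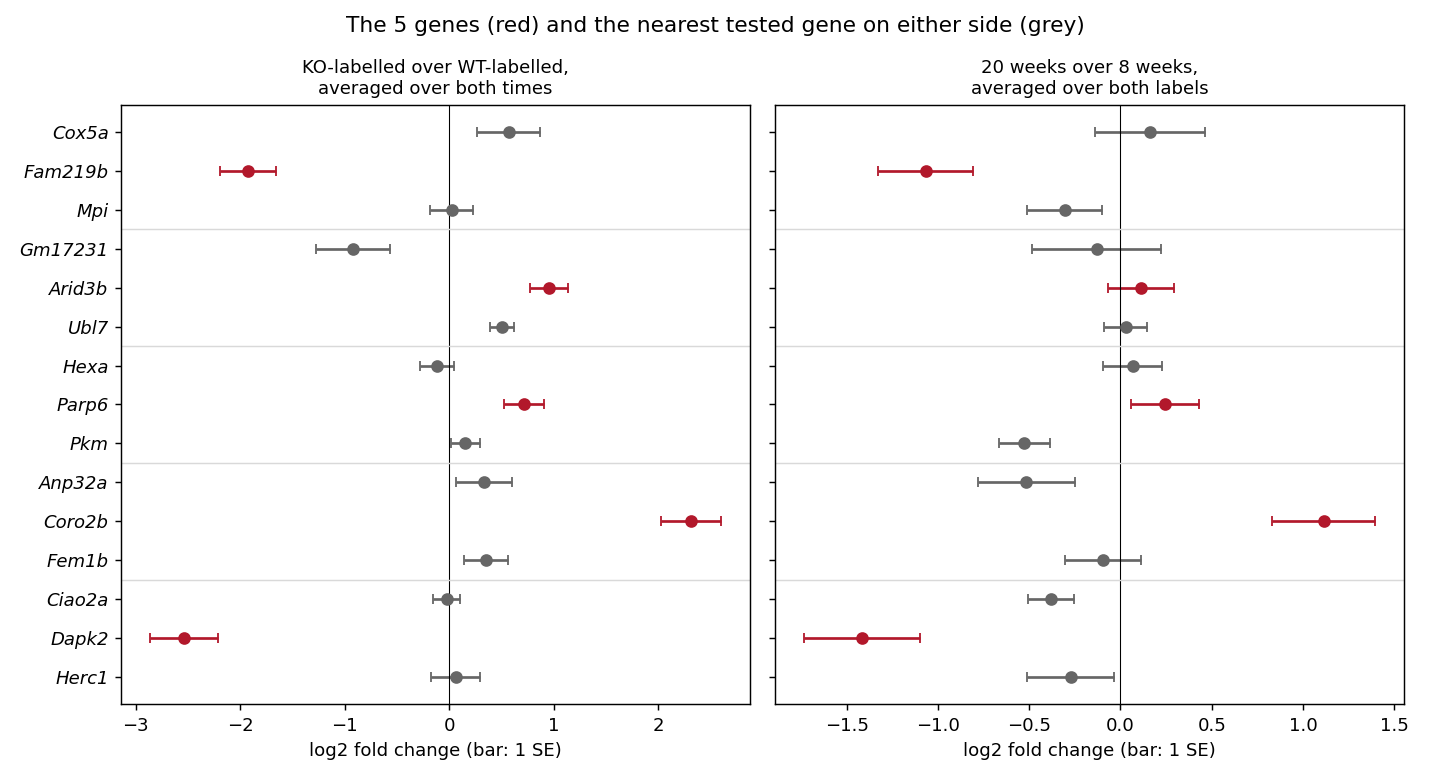
Log2 fold change with 1 SE (bars) of the 5 genes (red) and of the nearest tested gene on either side (grey), for KO-labelled over WT-labelled cells averaged over both times (left) and for 20 weeks over 8 weeks averaged over both labels (right). In the left panel the neighbours lie between -0.92 and 0.57, while Dapk2, Fam219b and Coro2b lie at -2.54, -1.93 and 2.31.

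Of the 142 annotated genes of the interval that the files list, 105 were tested and 37 fell to the filter on low counts. Among the 100 tested genes other than the 5, 0 passed an adjusted p of 0.05 for the label averaged over times (edgeR), and 14 were under an unadjusted p of 0.05, which is 14% beside 3.71% of all genes. Of those 14, 10 were higher and 4 lower in KO-labelled cells. DESeq2 called 2 of the 100, Thsd4 and Ubl7, beside 0.527% of all genes. The median absolute log2 fold change of the 100 was 0.201, against 0.151 over all genes. At 20 weeks alone, 2% of the 100 were under an unadjusted p of 0.05 (edgeR), beside 2.08% of all genes. The median there was 0.18, against 0.187 over all genes. At 8 weeks alone, the share was 12% beside 3.62%, and the median was 0.293 against 0.22. The 100 are what was left after the 5 were taken out for their difference.

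Thsd4, a gene with thrombospondin repeats, had 1.58, 1.61 and 1.66 CPM in KO-labelled cells at 20 weeks, against 2.49, 1.97 and 3.17 CPM in WT-labelled cells at 20 weeks, and 0.969, 1.93 and 2.04 CPM in KO-labelled cells at 8 weeks, against 3.76, 5.04 and 5.82 CPM in WT-labelled cells at 8 weeks. Its log2 fold change was -1.11 (SE 0.27, adjusted p = 0.324, edgeR). Paqr5, a membrane progestin receptor, had 2.15 to 3.67 CPM in KO-labelled and 1.15 to 2.51 CPM in WT-labelled libraries, and a log2 value of 0.89 (SE 0.26, adjusted p = 0.736, edgeR). Hcn4, a cation channel gene, had 4.59 to 21.6 estimated reads in KO-labelled libraries, against 4.26 and 4.19 in 2 WT-labelled libraries of 20 weeks and 0 in the other 4 WT-labelled libraries. These genes were named after their values were seen, for the smallest p-values among the 100.

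For time averaged over labels, 0 of the 100 passed by edgeR, 14% were under an unadjusted p of 0.05 beside 18.6% of all genes, and DESeq2 called 6, beside 8.5% of all genes. The nearest to the threshold were Dennd4a, at 0.60 on the log2 scale (SE 0.15, adjusted p = 0.0576, edgeR), and Pkm, at -0.53 (SE 0.14, adjusted p = 0.0673, edgeR).

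Along the chromosome, the windows are given without the 5 genes, which were chosen on this contrast. Between 40 and 50 Mb, where Thy1 lies, 5 of 81 tested genes were called for the label averaged over times, and 28.4% were under an unadjusted p of 0.05. Between 30 and 40 Mb these values were 2 of 38 and 18.4%. In the windows that hold the 5 genes, 0 of the remaining 96 genes were called between 50 and 60 Mb, with 9.38% under an unadjusted p of 0.05, and 0 of the remaining 68 between 60 and 70 Mb, with 8.82%. Between 20 and 30 Mb the values were 0 of 76 and 1.32%, and between 70 and 80 Mb 0 of 60 and 3.33%, beside 3.71% of all genes. Beyond 80 Mb none was called either, with 6.82%, 4.76%, 3.33%, 5.08% and 2.13% in successive windows to 130 Mb. Below 20 Mb none was called, and both windows were at 0%. Over the whole chromosome, 7 of the 793 tested genes other than the 5 were called (0.883%), beside 0.222% of all genes, and chromosome 2, which holds Rag1, had 5 of 1212 (0.413%).

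**Figure D4:**
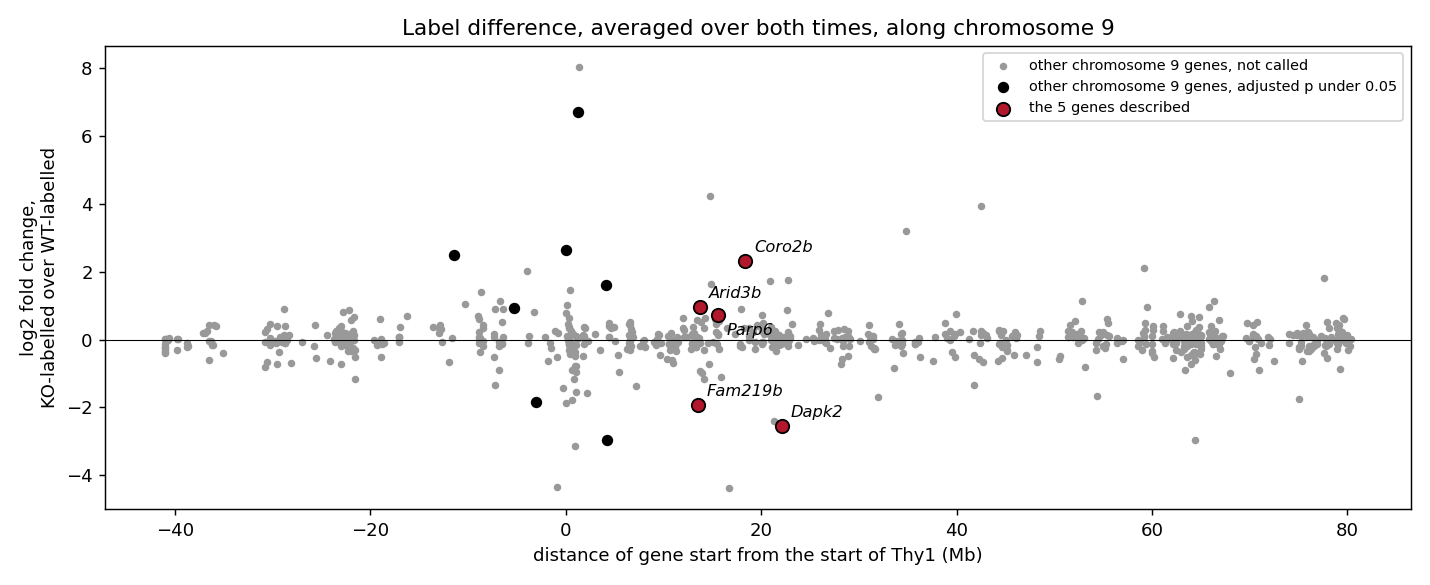
Log2 fold change, KO-labelled over WT-labelled averaged over both times, of each tested gene of chromosome 9 (vertical axis) against the distance of its start from that of Thy1 in Mb (horizontal axis). Red points are the 5 genes, chosen on this contrast and shown in red whether or not they passed. Black points are other genes with an adjusted p under 0.05 (edgeR) and grey points the rest. The 5 lie 13.494 to 22.115 Mb from Thy1. Of them, Arid3b and Parp6 did not pass, and no black point lies in that stretch.

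The 5 genes have relatives, of which 37 were tested, 2 of them on chromosome 9 (Parp3 and Parp16, the second inside the interval). Of the FAM219, ARID, PARP, coronin and DAPK genes other than the 5, 1 of 1, 12 of 13, 15 of 15, 6 of 6 and 3 of 3 were tested (Arid3c was not), and 0 of them passed for the label averaged over times by edgeR or by DESeq2, where 0.222% and 0.527% of all genes passed, and nothing is read from this count. Unadjusted p-values were under 0.05 for Kdm5c, a histone demethylase, at 0.53 on the log2 scale (SE 0.14, adjusted p = 0.538), and for Coro6, at -3.84 (SE 1.54, adjusted p = 1). Coro6 was near the floor, with a mean of 0.17 CPM in KO-labelled and 0.92 CPM in WT-labelled cells at 20 weeks. At 8 weeks these means were 0 and 0.213 CPM. The median log2 fold changes were 0.05, 0.01, 0.07, 0.03 and -0.23 in the 5 families, beside 0.01 over all genes. For time averaged over labels, DESeq2 called 3 of the 37 relatives, beside 8.5% of all genes, and edgeR called 1: Tiparp, a PARP family enzyme induced through the aryl hydrocarbon receptor, fell by 1.33 on the log2 scale at 20 weeks (SE 0.27, adjusted p = 0.0256, edgeR).

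In 4 of the 5 families the most abundant tested gene was one other than the 5, the exception being FAM219. By mean TPM over the 12 libraries the leading coronins were Coro1a, the main coronin of blood cells, with 1360 TPM, and Coro7, with 208 TPM. The leading PARP family genes were Zc3hav1, an antiviral zinc finger protein, with 316 TPM, and Tnks2, a tankyrase, with 117 TPM. The leading ARID genes were Kdm5a with 356 TPM and Arid5a with 82.3 TPM. Among the DAPK relatives Stk17b had 108 TPM and Dapk3 0.734 TPM, and Fam219a had 0.333 TPM, below Fam219b in every group.

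The genes whose log2 CPM followed each of the 5 most closely over the 12 libraries are given as a description, since the libraries fall into labels and times and the genes share libraries and depth. Fam219b was followed by Jag1, a Notch ligand (r = 0.969), Sc5d, a sterol desaturase of chromosome 9 (r = 0.948), and Pklr, a pyruvate kinase (r = 0.947). Dapk2 was followed by Gm15459 (r = 0.964), Fam219b itself (r = 0.917) and Pklr (r = 0.914). Arid3b was followed by Hcn4 (r = 0.934), Rag1 (r = 0.921) and the transcription factor gene Ets1 of chromosome 9 (r = 0.907). Coro2b was followed by 4930556J24Rik (r = 0.936), the neurofilament gene Nefh (r = 0.933) and Vwa5a of chromosome 9 (r = 0.924). Parp6 was followed by Pstpip1, a cytoskeletal adaptor of chromosome 9 (r = 0.891), Pik3ip1 (r = 0.871) and Ccm2 (r = 0.85). All are Pearson values over 12 libraries.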

How the data were processed

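RNA sequencing of 12 libraries was analysed. Per the file headers, the authors deposited for each transcript an expected count (estimated reads) and a TPM, made with sailfish 0.6.3 from 20-base words against Ensembl release 76. STAR 2.0.4b, featureCounts 1.4.5, Subread and bcl2fastq also stand in the submitters' processing notes, without a role. Reads that differ from the reference within a 20-base word do not count toward it; the part of this in the values was not tested. The RNA is labelled polyadenylated, while the protocol describes ribosomal RNA removal and random priming.

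Of 86127 transcripts, 83739 (97.2%) were matched by identifier to GENCODE M21 to give 29542 genes, and 2388 had no match and were not used. Counts were rounded, filtered with filterByExpr and TMM-scaled, and 14431 genes were fitted on 4 group means with edgeR 4.0.16 in R 4.3.3 (quasi-likelihood; biological coefficient of variation 0.377). DESeq2 1.42.0 was an alternative. Calls used a Benjamini-Hochberg adjusted p under 0.05. In simulated counts, with 14431 genes and time averaged over labels, 32% of log2 changes of 1 and 99% of changes of 2 were recovered. Likeness used log2(CPM + 0.5). The deposited TPM values served for levels between genes and for transcripts. The headers record 8 or 24 threads, and the thread number was a covariate in an alternative. At 20 weeks all KO-labelled libraries and WT-labelled library 3 had 24 threads, and WT-labelled libraries 1 and 2 had 8. At 8 weeks KO-labelled library 2 and WT-labelled library 3 had 24 and the rest 8. Thread number was thus partly tied to label at 20 weeks and to time, and its part in the values was not tested.

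The 5 genes, the family lists and the markers were chosen with earlier results of these data known. Named genes were the 5, the nearest tested gene on either side, called genes of the interval, the 3 genes most correlated with each of the 5, called family members and the 2 family members with the highest TPM, and Rag1 and Thy1. Outside this rule, Thsd4, Paqr5, Dennd4a, Kdm5c and Coro6 were named after their values were seen, for their small p-values. Parp3, Parp16, Cd3d, Cd3e and Cd3g were named for their place. Genes called only by DESeq2 fall outside the rule too.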

Additional observations from a re-analysis of the deposited data

How the results depend on the processing

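The label values of the 5 genes kept their direction in every alternative run. Averaged over times they ranged over -2.78 to -2.30 for Dapk2, -2.12 to -1.67 for Fam219b, 2.06 to 2.53 for Coro2b, 0.85 to 1.09 for Arid3b and 0.61 to 0.90 for Parp6. At 8 weeks, leaving out 1 library gave -2.91 (without KO-labelled library 3) to -2.23 for Dapk2 and 0.60 to 1.09 (without WT-labelled library 2) for Parp6, and without both libraries that stood apart they were -3.04 and 1.16.

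The time calls depended on the settings (edgeR unless named). Fam219b passed in 6 of 19 alternatives and not with length-scaled TPM counts (-1.04, adjusted p = 0.0552), the replicate number as a block (-1.05, 0.0675) or the thread covariate (-0.83, 0.16); leaving out 1 library gave -1.22 to -0.81. Dapk2 passed in 8 of 19 and not with length-scaled counts (-1.18, 0.121), the block (-1.43, 0.0658) or the thread covariate (-1.39, 0.0968); leaving out 1 library gave -1.59 to -1.23. Coro2b passed with DESeq2 (1.10, adjusted p = 0.00596) and length-scaled counts (1.08, 0.0268), over a range of adjusted p-values of 0.00596 to 0.141. Arid3b turned to -0.04 without KO-labelled library 1 of 8 weeks, within a range of -0.04 to 0.19. Over all genes 419 passed for time, against 1227 with DESeq2, 75 with the thread covariate, 983 without both libraries that stood apart and 77 to 927 leaving out 1 library. The cause of these changes was not tested.

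Of the other 100 genes of the interval, DESeq2 called 2 for the label and 6 for time; without both libraries that stood apart 6 were called for time, and leaving out 1 library called 0 to 3. By TPM, Arid3b-201 made up 47.8% and Coro2b-201 44.8% of their genes. Same-numbered libraries of the 2 labels had deviations correlated at 0.074, 0.109 and 0.145 at 20 weeks and 0.288, 0.195 and 0.09 at 8 weeks. Every library correlated best with its own number. The labels do not state a pairing, and the main fit used none, so it may ignore one. With the number within each time as a block, 19 genes were called for the label averaged over times, against 32 in the main fit. Whether the numbers pair libraries was not tested. Dapk2, with 5.81 to 210 reads a library, and the minor transcripts are limited most by depth.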
